A study of Mus musculus with 6 samples.

Results

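The genes described here are 34 members of the ATF4 arm of the integrated stress response, named as members of the pathway with earlier results of these data known, and measured in 2 mouse mesothelioma cell lines. Of the 34, 33 had at least 1 probe set (a group of short probes for a transcript) with a single gene symbol in the platform's annotation, out of 18193 genes measured in all; Pycr1 was not analysed here. AB1 comes from the BALB/c strain and AC29 from the CBA strain, both from females with an age of 6 to 8 weeks in the labels. Both lines are known as asbestos-induced mesotheliomas, cancers of the membranes around lungs and gut. AB1 was used at passage 40 and AC29 at passage 60. Each line was grown in 3 flasks in RPMI 1640 medium that held 2 mM glutamine, 25 mM HEPES and 5% foetal calf serum, harvested at 80% confluency, and profiled with 1 array per flask. The labels name no stress treatment. Each strain is represented by a single line, so line, strain and passage cannot be told apart. The p-values measure the spread between flasks.

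The integrated stress response begins when a kinase phosphorylates the translation factor eIF2 alpha, for instance when amino acids run short or unfolded proteins build up in the endoplasmic reticulum (ER). General protein synthesis then slows while translation of Atf4 mRNA rises, and ATF4, a basic leucine zipper (bZIP) transcription factor, pairs with C/EBP proteins and others on a composite DNA element, the C/EBP-ATF response element. Its targets import amino acids, make asparagine, serine, glycine and proline, charge transfer RNAs, restrain growth signalling and restore eIF2 alpha to its unphosphorylated form. The arrays measured mRNA, and neither the phosphorylation of eIF2 alpha nor the amount of ATF4 protein was measured.

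Of the 3 motifs searched in RefSeq promoter windows, the C/EBP-ATF element was the most frequent, in the members as over all genes. The motifs differ in how many letters they fix, which bears on how often each is found. A window runs from 250 bases before to 50 bases after a start site in GRCm38.p6, and 30 of the 34 members had at least 1. The letters TGATGNAA, on either strand, were present in 10 of 30 members (33.3%) and in 1219 of 27025 genes with a window (4.51%). Among members with a window they were found in 6 of 13 that were higher in AB1 by the rule below (Nupr1, Chac1, Pck2, Trib3, Herpud1 and Asns), in 3 of 16 that did not pass it (Slc1a4, Slc7a11 and Atf3), and in Pycr1. The cyclic AMP response element TGACGTCA was present in 1 member, Ppp1r15a, and in 2.03% of all genes. The ER stress element (CCAAT, any 9 bases, CCACG) was present in 0 of the 30 members and in 0.137% of all genes. At so low a share, 0 of 30 says little about the members. A match describes letters in a window and is not a measured binding site. The sequences below, each of 250 bases written 5′ to 3′ on the gene's strand with the matches to TGATGNAA in capitals, show the element in the 4 members with the largest differences between the lines that hold it, and then in Atf3 and Slc7a11, the 2 members with the smallest differences that hold it. The first 4 lie at chr7:126625471-126625720, minus strand, for Nupr1, at chr2:119350992-119351241, plus strand, for Chac1, at chr14:55540016-55540265, plus strand, for Pck2, and at chr2:152344031-152344280, minus strand, for Trib3, where the match lies after the start site. The other two lie at chr1:191183334-191183583, minus strand, for Atf3, and at chr3:50443614-50443863, minus strand, for Slc7a11.
Nupr1: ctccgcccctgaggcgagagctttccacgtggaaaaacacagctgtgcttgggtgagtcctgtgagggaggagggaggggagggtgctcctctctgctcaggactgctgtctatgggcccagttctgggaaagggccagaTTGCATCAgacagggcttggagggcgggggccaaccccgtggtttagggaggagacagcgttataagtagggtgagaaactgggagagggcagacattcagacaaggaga
Chac1: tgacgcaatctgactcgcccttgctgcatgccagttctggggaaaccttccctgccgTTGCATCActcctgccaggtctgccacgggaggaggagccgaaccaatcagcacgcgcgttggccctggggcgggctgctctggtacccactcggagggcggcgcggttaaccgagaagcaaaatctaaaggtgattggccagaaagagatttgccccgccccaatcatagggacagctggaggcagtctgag
Pck2: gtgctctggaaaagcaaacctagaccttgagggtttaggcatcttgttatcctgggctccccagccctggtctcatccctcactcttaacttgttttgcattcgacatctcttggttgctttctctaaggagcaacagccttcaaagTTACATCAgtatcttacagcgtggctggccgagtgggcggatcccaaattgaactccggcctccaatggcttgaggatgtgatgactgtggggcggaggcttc
Trib3: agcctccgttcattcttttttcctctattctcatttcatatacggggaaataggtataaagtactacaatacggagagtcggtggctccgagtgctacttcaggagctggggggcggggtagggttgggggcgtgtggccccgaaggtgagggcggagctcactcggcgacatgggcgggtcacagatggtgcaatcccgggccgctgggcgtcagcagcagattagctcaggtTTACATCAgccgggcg
Atf3: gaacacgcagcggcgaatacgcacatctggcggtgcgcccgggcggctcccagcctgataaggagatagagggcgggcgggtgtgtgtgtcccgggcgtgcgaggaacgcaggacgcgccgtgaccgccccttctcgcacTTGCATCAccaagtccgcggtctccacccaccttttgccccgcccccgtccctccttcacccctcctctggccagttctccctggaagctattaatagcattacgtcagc
Slc7a11: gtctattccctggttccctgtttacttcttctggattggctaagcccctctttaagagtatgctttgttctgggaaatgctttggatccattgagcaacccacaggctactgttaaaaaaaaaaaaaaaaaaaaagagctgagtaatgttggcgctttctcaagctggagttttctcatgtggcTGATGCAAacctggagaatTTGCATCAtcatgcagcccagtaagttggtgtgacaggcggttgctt
Nupr1, Chac1, Atf3 and Slc7a11 hold the same 8 letters, TTGCATCA when read on the gene's strand, which is TGATGCAA on the other. Slc7a11 holds both orientations. Pck2 and Trib3 hold TTACATCA. The element was thus present, with the same letters, both in members that differed most between the lines and in members that differed little.

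**Figure D1:**
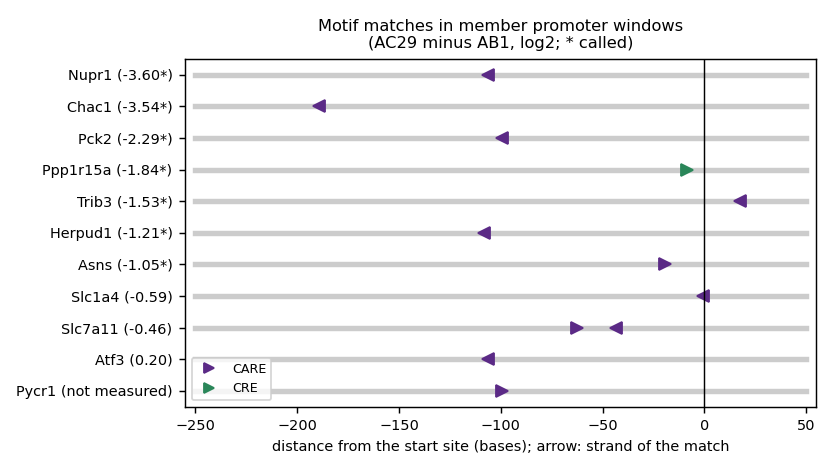
Motif matches in the promoter windows of the members that hold any, by distance in bases from the start site, with the log2 difference between the lines after each name (an asterisk marks members past the rule) and arrows giving the strand of the match relative to the gene. The 4 members at the top differ from -1.84 to -3.60. Of these, Ppp1r15a holds only the cyclic AMP response element, and the others hold the C/EBP-ATF element. The C/EBP-ATF element is also found in Slc1a4, Slc7a11 and Atf3, which did not pass.

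Members that differed beyond the rule were all higher in AB1. Values are log2 RMA expression (an array summary in which 1 unit is a 2-fold change), differences are AC29 minus AB1, and a gene was called when its adjusted p in limma was under 0.05 and its log2 difference at least 1 in size. By that rule 15 of 33 members (45.5%) were higher in AB1 and 0 were higher in AC29; over all 18193 genes 5.82% were called higher in AB1 and 5.12% higher in AC29. Among the 11647 genes that exceeded the background floor in a line (6.07, set from receptor genes foreign to these cells), which took in 32 of the 33 members, the shares were 8.7% and 7.68%. The median difference of the 33 members was -0.93, against -0.0047 over all genes. With no minimum difference, 27 members (81.8%) passed toward AB1 and 2 toward AC29, where 20.5% and 19.8% of all genes did (40.3% in either direction). At an unadjusted p under 0.05, 27 members were higher in AB1 and 2 in AC29, Cebpb and Slc7a3, where 23.4% and 22.8% of all genes were.

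For 27 members every AB1 array read higher than every AC29 array, and for 2 every AC29 array read higher. Over all genes these shares were 25.4% and 24.8% (50.1% in either direction). The 4 members with overlap were Atf3, Ddit3, Cbs and Slc3a2. Called members differed from 2.07-fold to 12.2-fold, with limma adjusted p of at most 4.39e-06. Standard errors of a member's difference lay between 0.081 and 0.13.

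**Figure D2:**
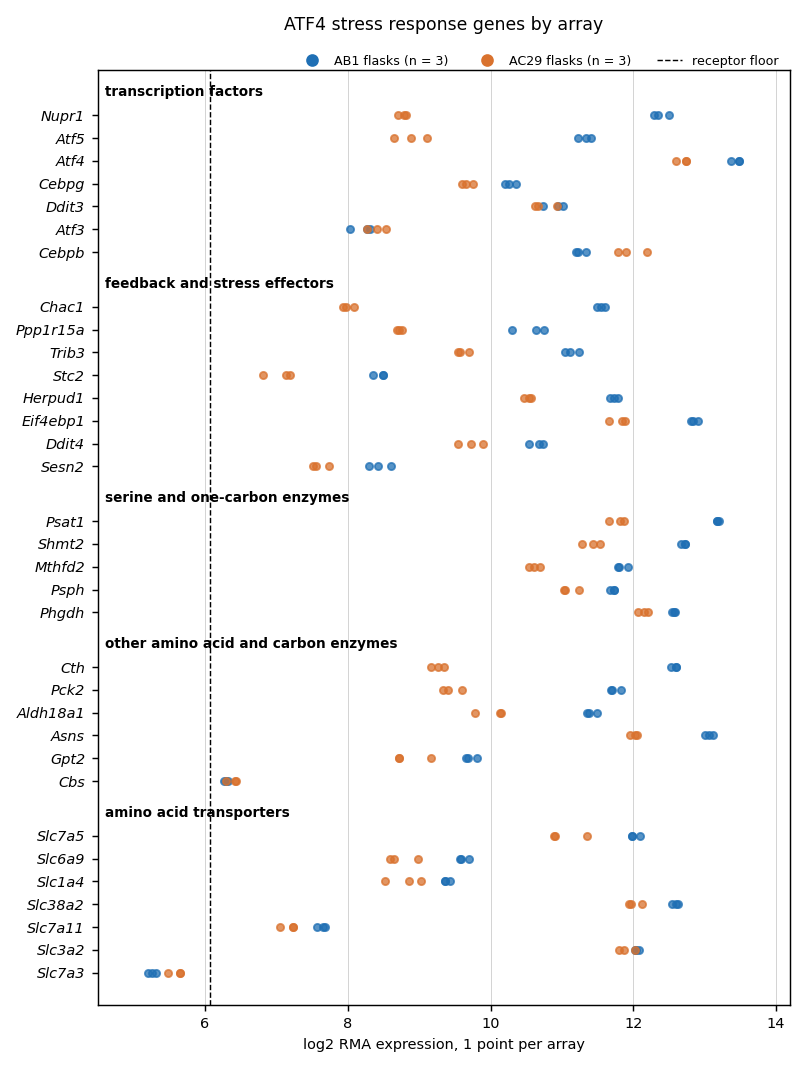
Log2 RMA expression of each of the 33 measured members on each array, AB1 in blue and AC29 in orange with 3 flasks each, grouped by role, with the floor of 6.07 as a dashed line. The 3 AB1 points lie to the right of the 3 AC29 points for 27 members, and only Slc7a3 lies under the floor in both lines.

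The check of the samples found the arrays alike in scale and the lines clearly apart. Pearson's r across genes was between 0.995 and 0.998 within a line and 0.937 to 0.938 between lines, and these are correlations across genes, which are not replicates. The probe sets for the 3′ and 5′ ends of Actb differed by 0.12 to 0.18 in AB1 and by 0.22 to 0.32 in AC29, and those of Gapdh by -0.16 to -0.14 and by -0.14 to -0.10; their part in the results was not tested. AC29 replicate 14 read 8.53 for the middle of 18S rRNA, against 7.43 to 7.91 on the other arrays. Of 10 mesothelial markers, 8 were called higher in AC29 and 0 in AB1, against 5.12% and 5.82% of all genes. Msln, which encodes mesothelin, was above the floor in both lines, while Wt1, Upk3b, Upk1b, Krt8 and Lrrn4 were not above it in AB1. The leukocyte and endothelial genes Ptprc, Adgre1, Itgam, Cd3g, Pecam1 and Cdh5 stayed below the floor on every array, while Csf1r, Cd3e and Kdr were above it in both lines. Cd14 was also above the floor in both lines (mean 9.02 in AB1 and 7.26 in AC29). Cd68 was above it only in AB1 (mean 6.68) and Lyz2 only in AC29 (mean 6.31). Of the 7 macrophage markers 1 was called, Cd14, higher in AB1, and 0 of 5 lymphocyte and 0 of 5 endothelial markers were called. Over all genes 10.9% were called in either direction. In these 3 lists, 3 of the 7, 4 of the 5 and 4 of the 5 stayed below the floor on every array. Few of these markers could therefore show a difference. The part of the marker differences in the results was not tested.

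Among the transcription factors, Nupr1 and Atf5 were called and Atf4 itself was not. Values are given in the order of flasks 4, 5 and 6 of AB1 and 13, 14 and 15 of AC29. Nupr1, a small chromatin-associated stress protein, read 12.34, 12.49 and 12.29 in AB1 and 8.81, 8.79 and 8.71 in AC29. It was 12.2-fold higher in AB1 (log2 difference -3.60, SE 0.088, limma adjusted p = 3.22e-10), the largest difference of any member. Its other probe set differed by -3.70. Atf5, a bZIP factor close to ATF4 whose translation is also raised when eIF2 alpha is phosphorylated, read 11.40, 11.34 and 11.23 in AB1 and 8.66, 8.88 and 9.11 in AC29. It was 5.44-fold higher in AB1 (log2 difference -2.44, SE 0.12, limma adjusted p = 5.32e-08), and no flask of AC29 came within 2 log2 units of any flask of AB1. Atf4 mRNA read 13.48, 13.48 and 13.37 in AB1 and 12.59, 12.74 and 12.73 in AC29. All AB1 flasks were above all AC29 flasks, and the 1.69-fold difference stayed under the minimum (log2 difference -0.76, SE 0.085, limma adjusted p = 3.75e-05). Of its other probe sets, a bright one differed by -0.79 without overlap. A dim one, near the floor, differed by -0.20 with overlap (limma adjusted p = 0.233 over all single-symbol probe sets). Cebpg, a C/EBP protein that pairs with ATF4, read 10.25, 10.36 and 10.20 in AB1 and 9.75, 9.60 and 9.66 in AC29 (log2 difference -0.60, SE 0.087, limma adjusted p = 0.00023).

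The remaining transcription factors were higher in AC29 or overlapped. Cebpb, a C/EBP protein of inflammation and differentiation as well as stress, read 11.34, 11.20 and 11.23 in AB1 and 11.89, 11.79 and 12.20 in AC29. It was the only member above the floor whose flasks were all higher in AC29, at 1.63-fold and under the minimum (log2 difference 0.70, SE 0.11, limma adjusted p = 0.000481). Ddit3, which encodes CHOP, a factor induced by ATF4 in prolonged ER stress, read 10.94, 11.02 and 10.73 in AB1 and 10.67, 10.94 and 10.62 in AC29, and the lines overlapped (log2 difference -0.15, 95% interval -0.40 to 0.097, limma adjusted p = 0.336). Atf3, an immediate early bZIP factor downstream of ATF4 and of other stress signals, read 8.28, 8.31 and 8.04 in AB1 and 8.41, 8.53 and 8.27 in AC29, also with overlap (log2 difference 0.20, 95% interval -0.038 to 0.43, limma adjusted p = 0.179). The interval of Atf3 and that of the brightest Ddit3 probe set leave out a 2-fold difference in either direction. The other Ddit3 probe set read 7.28, 7.20 and 7.64 in AB1 and 6.31, 7.39 and 6.39 in AC29, a difference of -0.68 (SE 0.26, limma adjusted p = 0.068 over all single-symbol probe sets), so a 2-fold difference is not left out there.

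Of the 8 feedback and stress effectors, 6 were called higher in AB1, where 5.82% of all genes were. The others, Ddit4 and Sesn2, fell short of the 2-fold minimum in the same direction by their brightest probe sets. Chac1, an enzyme that degrades glutathione, read 11.60, 11.54 and 11.49 in AB1 and 7.98, 7.93 and 8.09 in AC29. It was 11.7-fold higher in AB1 (log2 difference -3.54, SE 0.084, limma adjusted p = 2.82e-10). Ppp1r15a, which encodes GADD34, the phosphatase subunit that removes phosphate from eIF2 alpha and so ends the response, read 10.63, 10.75 and 10.30 in AB1 and 8.72, 8.76 and 8.69 in AC29. It was 3.57-fold higher in AB1 (log2 difference -1.84, SE 0.11, limma adjusted p = 3.93e-07); its AB1 flasks had the widest spread of any member in that line (SD 0.23). Trib3, a pseudokinase that binds ATF4 and restrains it, read 11.24, 11.12 and 11.05 in AB1 and 9.55, 9.57 and 9.70 in AC29 and was 2.88-fold higher in AB1 (log2 difference -1.53, SE 0.089, limma adjusted p = 2.43e-07). These 3 genes act in feedback or in the late phase of the response, and their lines were separated by more than 1.3 log2 units at the closest flasks.

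Stc2, a secreted glycoprotein induced by ER stress, read 8.49, 8.50 and 8.35 in AB1 and 7.14, 6.81 and 7.20 in AC29 and was 2.64-fold higher in AB1 (log2 difference -1.40, SE 0.11, limma adjusted p = 2.77e-06). Herpud1, a membrane protein of ER-associated degradation, read 11.79, 11.73 and 11.68 in AB1 and 10.53, 10.47 and 10.57 in AC29 and was 2.31-fold higher in AB1 (log2 difference -1.21, SE 0.081, limma adjusted p = 6.93e-07). Eif4ebp1, which encodes 4E-BP1, a repressor of cap-dependent translation, read 12.91, 12.84 and 12.81 in AB1 and 11.88, 11.84 and 11.66 in AC29 and was 2.08-fold higher in AB1 (log2 difference -1.06, SE 0.090, limma adjusted p = 4.39e-06). Eif4ebp1 lay just inside the minimum and was not called without AC29 replicate 15 (-0.99). Ddit4, an inhibitor of mTORC1 signalling, read 10.54, 10.68 and 10.73 in AB1 and 9.89, 9.55 and 9.72 in AC29 and lay just outside it (log2 difference -0.93, SE 0.11, limma adjusted p = 4.04e-05); without AC29 replicate 13 it passed (-1.02). Sesn2, which signals leucine shortage to mTORC1 and is also a p53 target, read 8.29, 8.43 and 8.60 in AB1 and 7.52, 7.74 and 7.55 in AC29 by its brightest probe set (log2 difference -0.84, SE 0.10, limma adjusted p = 7.99e-05). Its other probe set passed the rule at -1.73 (limma adjusted p = 9.69e-07, adjusted over all single-symbol probe sets), so the direction was shared by both and the size was not.

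**Figure D3:**
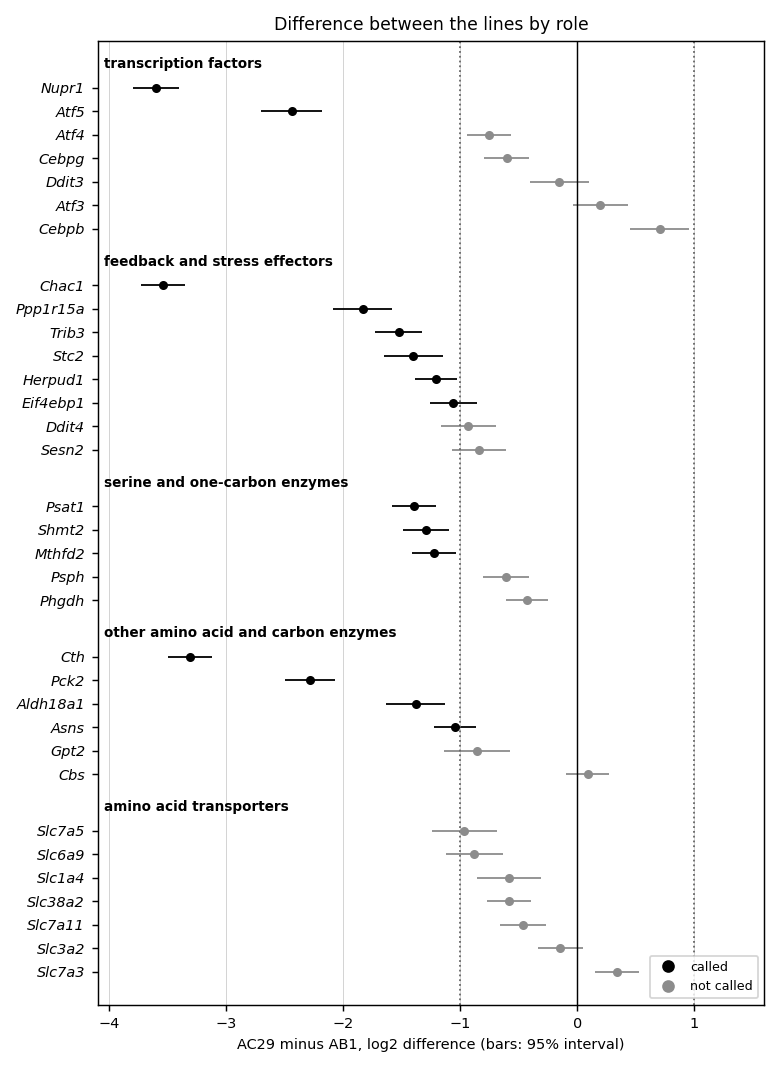
AC29 minus AB1 difference of each measured member on the log2 scale, with 95% intervals from limma (3 arrays a line), by role; black points passed the call rule and dotted lines mark a difference of 1 in size. The effectors all lie left of 0, from -0.84 to -3.54, and no amino acid transporter is called.

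Of the 5 enzymes of serine synthesis and mitochondrial one-carbon metabolism, 3 were called higher in AB1, where 5.82% of all genes were. Psph had the same direction under the minimum. Phgdh also read higher in AB1 by its brightest probe set, but its probe sets disagreed in direction. Serine is made from a glycolytic intermediate by PHGDH, PSAT1 and PSPH in turn, and SHMT2 and MTHFD2 then pass its carbon to folate in mitochondria. Phgdh, the first enzyme, read 12.58, 12.57 and 12.55 in AB1 and 12.21, 12.06 and 12.15 in AC29 by its brightest probe set, a 1.34-fold difference (log2 difference -0.43, SE 0.081, limma adjusted p = 0.00156). Psat1, the transaminase that follows, read 13.18, 13.20 and 13.17 in AB1 and 11.66, 11.87 and 11.82 in AC29 and was 2.63-fold higher in AB1 (log2 difference -1.40, SE 0.086, limma adjusted p = 3.72e-07). Psph, the phosphatase of the last step, read 11.73, 11.73 and 11.67 in AB1 and 11.04, 11.24 and 11.03 in AC29, 1.52-fold apart (log2 difference -0.61, SE 0.088, limma adjusted p = 0.000253). Psph thus stayed under the 2-fold minimum. Shmt2 read 12.73, 12.73 and 12.67 in AB1 and 11.43, 11.29 and 11.53 in AC29 and was 2.45-fold higher in AB1 (log2 difference -1.30, SE 0.089, limma adjusted p = 8.75e-07). Mthfd2 read 11.92, 11.79 and 11.80 in AB1 and 10.55, 10.70 and 10.61 in AC29 and was 2.34-fold higher in AB1 (log2 difference -1.22, SE 0.085, limma adjusted p = 9.49e-07).

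The probe sets of Phgdh disagreed. Of 4 with Phgdh as their only symbol, 3 differed by -0.43, -0.38 and -0.36. The remaining set read 7.02, 6.93 and 6.95 in AB1 and 13.08, 13.01 and 13.29 in AC29, a difference of 6.16 toward AC29 (SE 0.096, limma adjusted p = 3.28e-10 over all single-symbol probe sets), with no overlap between the lines. The platform lists the predicted genes Gm8096 and Gm6756 beside Phgdh for further probe sets, and the direction of Phgdh is uncertain on these arrays. Over all members, 23 had more than 1 probe set. Of 18 further probe sets above the floor for 11 of the called members, 18 had the direction of the call and 16 passed the rule themselves. Of 19 such probe sets of members not called, 2 passed, 1 of Phgdh and 1 of Sesn2.

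**Figure D4:**
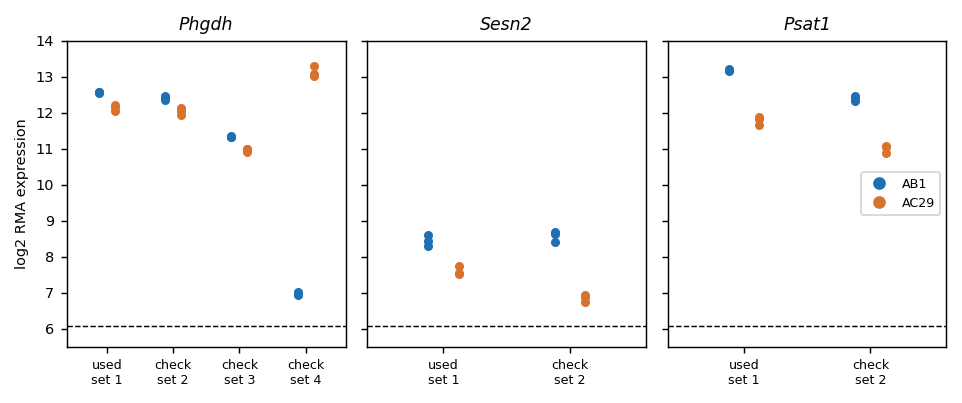
Log2 RMA expression by array for every single-symbol probe set of Phgdh, Sesn2 and Psat1, AB1 in blue and AC29 in orange, with 3 flasks each and the floor of 6.07 dashed; used marks the brightest set by mean. Set 4 of Phgdh goes from about 7 in AB1 to about 13 in AC29 while its other sets are slightly higher in AB1, and both sets of Psat1 differ by -1.40.

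Among the other amino acid and carbon enzymes, 4 of 6 were called higher in AB1, where 5.82% of all genes were. Cth, the transsulfuration enzyme that makes cysteine from cystathionine, read 12.60, 12.60 and 12.53 in AB1 and 9.36, 9.26 and 9.17 in AC29. It was 9.94-fold higher in AB1 (log2 difference -3.31, SE 0.085, limma adjusted p = 4.81e-10). Pck2, the mitochondrial enzyme that makes phosphoenolpyruvate, read 11.82, 11.69 and 11.69 in AB1 and 9.34, 9.41 and 9.60 in AC29 and was 4.87-fold higher in AB1 (log2 difference -2.29, SE 0.095, limma adjusted p = 1.60e-08). Aldh18a1, which begins proline synthesis from glutamate, read 11.35, 11.50 and 11.38 in AB1 and 10.15, 9.78 and 10.14 in AC29 and was 2.61-fold higher in AB1 (log2 difference -1.38, SE 0.11, limma adjusted p = 3.03e-06); its 4 other probe sets differed by -1.02 to -1.30. Asns, asparagine synthetase, a widely used readout of ATF4, read 13.06, 13.11 and 13.01 in AB1 and 12.05, 11.96 and 12.03 in AC29, and was 2.07-fold higher in AB1 (log2 difference -1.05, SE 0.081, limma adjusted p = 2.09e-06). Asns lay near the minimum, and it did not pass when limma tested against a 2-fold difference. Of the other called members, Eif4ebp1, Herpud1, Shmt2 and Mthfd2 did not pass that test either. Gpt2, the mitochondrial alanine transaminase, read 9.69, 9.82 and 9.65 in AB1 and 9.17, 8.71 and 8.71 in AC29 by its brightest probe set. It stayed under the minimum (log2 difference -0.86, SE 0.13, limma adjusted p = 0.000281), with AC29 replicate 13 the nearest to AB1. Without that flask it passed (-1.01). Its other probe sets differed less, by -0.69, -0.28 and -0.53, and were not called. Cbs, the transsulfuration enzyme just before Cth, read 6.27, 6.30 and 6.32 in AB1 and 6.42, 6.29 and 6.44 in AC29 (log2 difference 0.089, 95% interval -0.094 to 0.27, limma adjusted p = 0.454). Its values lay close to the floor in both lines, where a difference would be hard to measure.

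No amino acid transporter among the 7 members passed the rule in limma; at an unadjusted p under 0.05, 5 were higher in AB1 and 1 in AC29 (23.4% and 22.8% of all genes). By their brightest probe sets, 5 had all AB1 flasks above all AC29 flasks (25.4% of all genes), at differences under the 2-fold minimum. Slc7a5, the light chain of the leucine importer LAT1, read 12.09, 11.98 and 11.98 in AB1 and 10.91, 10.89 and 11.36 in AC29 (log2 difference -0.97, SE 0.12, limma adjusted p = 0.000104); AC29 replicate 15 was the flask nearest to AB1, and without it the difference was -1.12 and passed. Slc6a9, a glycine transporter, read 9.70, 9.58 and 9.59 in AB1 and 8.65, 8.60 and 8.98 in AC29 (log2 difference -0.88, SE 0.11, limma adjusted p = 8.30e-05). Slc1a4, a carrier of alanine, serine and cysteine, read 9.37, 9.37 and 9.44 in AB1 and 8.86, 8.52 and 9.03 in AC29 (log2 difference -0.59, SE 0.12, limma adjusted p = 0.00286). In both Slc6a9 and Slc1a4, as in Slc7a5, AC29 replicate 15 was the flask of its line nearest to AB1. Slc38a2, a sodium-coupled importer of small neutral amino acids induced by starvation, read 12.55, 12.60 and 12.63 in AB1 and 12.12, 11.94 and 11.97 in AC29 (log2 difference -0.58, SE 0.085, limma adjusted p = 0.000261). On its other probe sets the lines overlapped (log2 differences -0.32 and -0.15). Slc7a11, the light chain of the cystine and glutamate exchanger, read 7.57, 7.65 and 7.68 in AB1 and 7.23, 7.23 and 7.05 in AC29 (log2 difference -0.46, SE 0.088, limma adjusted p = 0.00156). Its other probe set differed by -0.64 with overlap (SE 0.25, limma adjusted p = 0.069 over all single-symbol probe sets). Slc3a2, the heavy chain that LAT1 and the cystine exchanger share, read 12.04, 12.08 and 12.02 in AB1 and 11.87, 11.80 and 12.02 in AC29 and overlapped (log2 difference -0.15, 95% interval -0.34 to 0.048, limma adjusted p = 0.23). The exchanger's light chain thus differed slightly by its brightest probe set, while the lines were not separated for the heavy chain. Slc7a3, a carrier of cationic amino acids, stayed below the floor on all arrays (5.25 ± 0.056 in AB1 and 5.59 ± 0.096 in AC29, SD, n = 3), so no fold is given. By role, the median log2 difference was -1.31 for the effectors, -1.22 for the serine and one-carbon enzymes, -1.21 for the other enzymes, -0.60 for the transcription factors and -0.58 for the transporters; these medians describe the members and their differences were not tested.

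The flasks of a line were close to each other. The median SD over the members was 0.064 in AB1 and 0.11 in AC29, and over all genes it was 0.090 and 0.12. In AB1, replicate 6 was the lowest flask for 22 of 33 members, where it was lowest for 39.3% of all genes. In AC29, replicate 14 was lowest for 17 members, where it was lowest for 43.2% of all genes. These shifts were small, the median deviation of the members being -0.041 and -0.055 from the mean of their line. Without AC29 replicate 14, 15 members were called.

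The kinases and factors that act on eIF2 did not share the direction of the members. Of 19 measured genes of the eIF2 kinase and eIF2 list, 0 were called higher in AB1 and 1 higher in AC29. Over all genes 5.82% and 5.12% were called. The median of the list was -0.14. With no minimum difference 7 passed toward AB1 and 6 toward AC29 (20.5% and 19.8% of all genes). At an unadjusted p under 0.05 they were 8 and 6 (23.4% and 22.8% of all genes). Impact, an inhibitor of the kinase GCN2, was 2.45-fold higher in AC29 (7.49 ± 0.062 in AB1 and 8.79 ± 0.32 in AC29, SD, n = 3; log2 difference 1.30, SE 0.14, limma adjusted p = 3.21e-05), and was not called on the mean of its probe sets. Eif2s2, which encodes eIF2 beta, read 13.55 ± 0.012 in AB1 and 13.12 ± 0.14 in AC29 (log2 difference -0.43, SE 0.092, limma adjusted p = 0.0032). The 4 kinases, named here after their values were seen, were not called. Eif2ak3, which encodes the ER kinase PERK, differed most, at -0.48 (limma adjusted p = 0.000854). Eif2ak4, which encodes the amino acid sensor GCN2, differed by -0.21, Eif2ak1, the heme-regulated kinase, by 0.27 and Eif2ak2, the kinase PKR, by 0.014.

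Enzymes that charge transfer RNAs leaned toward AB1 by small amounts. Of 19 measured aminoacyl-tRNA synthetases, 1 was called higher in AB1 and 0 higher in AC29, and the median was -0.49. Over all genes 5.82% and 5.12% were called. With no minimum difference 11 (57.9%) passed toward AB1 and 0 toward AC29, where 20.5% and 19.8% of all genes did. The counts were the same at an unadjusted p under 0.05, where the shares of all genes were 23.4% and 22.8%. Cars, for cysteine, was 2.42-fold higher in AB1 (log2 difference -1.28, SE 0.096, limma adjusted p = 1.69e-06). Rars, for arginine, the brightest that was not called, read 12.34 ± 0.091 in AB1 and 12.50 ± 0.012 in AC29 (log2 difference 0.16, SE 0.083, limma adjusted p = 0.172).

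Further genes linked to ATF4 in other work went in both directions. Of 18 measured, 4 (22.2%) were called higher in AB1 and 3 (16.7%) higher in AC29, with a median of -0.53. Over all genes 5.82% and 5.12% were called, and among genes above the floor in a line 8.7% and 7.68%. Vldlr, a lipoprotein receptor that hypoxia also induces, was at least 29.5-fold higher in AB1 (10.96 ± 0.017 in AB1 and 6.01 ± 0.34 in AC29; log2 difference -4.95, SE 0.15, limma adjusted p = 1.38e-09), a bound against the floor because the AC29 mean lay under it, with 2 of 3 AC29 arrays above. Bbc3, which encodes the apoptosis protein PUMA and is also a p53 target, was 3.07-fold higher in AB1 (log2 difference -1.62, SE 0.092, limma adjusted p = 1.98e-07), and Vegfa, an angiogenic growth factor, was 2.93-fold higher in AB1 (log2 difference -1.55, SE 0.092, limma adjusted p = 2.75e-07). Ndrg1, a stress-induced protein of differentiation, was 2.55-fold higher in AC29 (log2 difference 1.35, SE 0.16, limma adjusted p = 4.52e-05). Chac2, a relative of Chac1 that also degrades glutathione, was 2.39-fold higher in AC29 (log2 difference 1.26, SE 0.13, limma adjusted p = 2.09e-05), opposite to Chac1. Slc30a1, a zinc exporter, was 2.18-fold higher in AC29 (log2 difference 1.13, SE 0.11, limma adjusted p = 1.46e-05). Sqstm1, which encodes the autophagy receptor p62, read 12.61 ± 0.075 in AB1 and 12.51 ± 0.14 in AC29 (log2 difference -0.094, SE 0.096, limma adjusted p = 0.503).

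**Figure D5:**
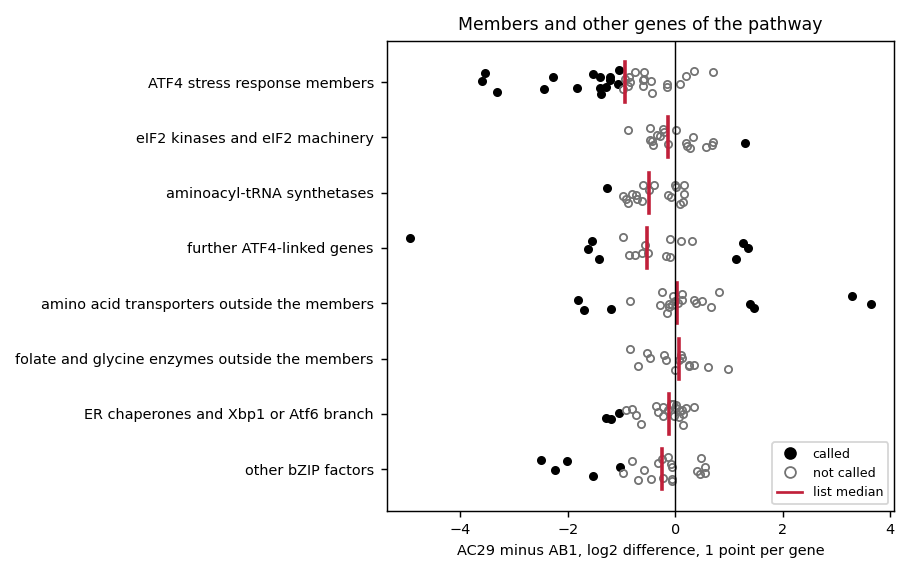
AC29 minus AB1 log2 differences of the 33 members and of 7 other lists of the pathway, 1 point per gene, filled where called, with each list's median as a red bar and the median of all genes as a vertical line. The members' median is -0.93, and the medians of the other lists run from -0.53 to 0.063.

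Amino acid transporters outside the members had no common direction. Of 24 measured, 3 (12.5%) were called higher in AB1 and 4 (16.7%) higher in AC29, with a median of 0.025. Over all genes 5.82% and 5.12% were called. Slc1a5, a glutamine carrier, was 3.5-fold higher in AB1 (log2 difference -1.81, SE 0.084, limma adjusted p = 4.10e-08), and Slc16a10, a carrier of aromatic amino acids, was at least 2.93-fold higher in AB1 (7.62 ± 0.090 in AB1 and 5.93 ± 0.30 in AC29, 1 of 3 AC29 arrays above the floor; log2 difference -1.70, SE 0.14, limma adjusted p = 3.27e-06); the remaining gene called toward AB1, Slc38a4, stayed below the floor on all arrays. Slc6a15, a carrier of branched-chain amino acids and proline, was at least 2.58-fold higher in AC29 (3.79 ± 0.17 in AB1 and 7.44 ± 0.17 in AC29, below the floor in AB1; limma adjusted p = 2.18e-09). Slc7a2, a carrier of arginine, was at least 2.43-fold higher in AC29 (4.07 ± 0.22 in AB1 and 7.35 ± 0.089 in AC29; limma adjusted p = 4.30e-09), and Slc1a3, a glutamate carrier, was at least 2.75-fold higher in AC29 (6.07 ± 0.20 in AB1 and 7.53 ± 0.20 in AC29, 1 of 3 AB1 arrays above the floor; log2 difference 1.46, SE 0.13, limma adjusted p = 5.92e-06). Slc6a6, a taurine carrier, read 10.97 ± 0.089 in AB1 and 11.63 ± 0.21 in AC29 (log2 difference 0.66, SE 0.11, limma adjusted p = 0.000746). Of 15 folate and glycine enzymes outside the members, 0 were called in either direction in limma and the median was 0.063. With no minimum difference 4 passed toward AB1 and 3 toward AC29 (20.5% and 19.8% of all genes). At an unadjusted p under 0.05 they were 5 and 5 (23.4% and 22.8% of all genes). Gcsh, a protein of the glycine cleavage system, was the brightest of them (11.94 ± 0.051 in AB1 and 12.19 ± 0.16 in AC29; log2 difference 0.25, SE 0.098, limma adjusted p = 0.0649).

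In the ER chaperone and Xbp1 or Atf6 list, which covers the other arms of the unfolded protein response, few genes were called. With so few calls no direction is read from them. Of 24 measured genes, 3 (12.5%) were called higher in AB1 and 0 higher in AC29, and the median was -0.11. All 24 were above the floor in a line, and among all such genes 8.7% and 7.68% were called. With no minimum difference 8 (33.3%) passed toward AB1 and 1 (4.17%) toward AC29, against 28.9% and 27.8% of all genes above the floor. At an unadjusted p under 0.05 they were also 8 and 1 (23.4% and 22.8% of all genes). Edem1, a lectin-like protein of ER-associated degradation, was 2.44-fold higher in AB1 (log2 difference -1.28, SE 0.087, limma adjusted p = 7.88e-07), Dnajb9, a co-chaperone, 2.28-fold higher in AB1 (log2 difference -1.19, SE 0.10, limma adjusted p = 4.52e-06), and Pdia6, a disulfide isomerase, 2.07-fold higher in AB1 (log2 difference -1.05, SE 0.082, limma adjusted p = 2.22e-06). Hspa5, which encodes the chief ER chaperone BiP, was not called (log2 difference 0.019, 95% interval -0.19 to 0.23, limma adjusted p = 0.911). Of the genes under the minimum, the following are named after their values were seen. Xbp1, the transcription factor made by splicing in the IRE1 arm, read 12.22 ± 0.034 in AB1 and 11.42 ± 0.24 in AC29 (log2 difference -0.80, SE 0.12, limma adjusted p = 0.000251). Ern1, which encodes IRE1 alpha, read 9.93 ± 0.13 in AB1 and 9.19 ± 0.067 in AC29 (log2 difference -0.74, SE 0.093, limma adjusted p = 8.90e-05). Sel1l, a subunit of the ER degradation complex, read 9.94 ± 0.16 in AB1 and 9.02 ± 0.19 in AC29 (log2 difference -0.92, SE 0.12, limma adjusted p = 0.000105). These 3 genes are among the 8 that passed toward AB1 with no minimum difference. The 1 gene that passed toward AC29 was Syvn1 (log2 difference 0.35, SE 0.11, limma adjusted p = 0.0238). Atf6, Hsp90b1, Calr, Canx, Hyou1 and Dnajb11 passed in neither direction, so the 3 genes do not stand for the whole list. Among 23 other bZIP factors, 5 (21.7%) were called higher in AB1 and 0 higher in AC29, with a median of -0.26. Over all genes 5.82% and 5.12% were called. At an unadjusted p under 0.05 the bZIP counts were 12 and 5 (23.4% and 22.8% of all genes). Cebpa, a C/EBP protein of differentiation, was at least 5.58-fold higher in AB1 (8.55 ± 0.12 in AB1 and 6.06 ± 0.23 in AC29, 1 of 3 AC29 arrays above the floor; log2 difference -2.49, SE 0.12, limma adjusted p = 5.69e-08), and Jun, a subunit of AP-1, was 4.71-fold higher in AB1 (log2 difference -2.24, SE 0.086, limma adjusted p = 9.41e-09). Fosb, another AP-1 subunit, read 6.26 ± 0.32 in AB1 and 4.25 ± 0.48 in AC29, at least 1.14-fold higher in AB1 (limma adjusted p = 3.49e-05). Jund, the brightest not called, read 10.61 ± 0.067 in AB1 and 11.09 ± 0.17 in AC29 (log2 difference 0.48, SE 0.10, limma adjusted p = 0.00301).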

How the data were processed

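Total RNA of 3 AB1 and 3 AC29 flasks was labelled from 5 ug and hybridised to Affymetrix arrays, per the labels' protocols. The deposited values were log2 values, 1 per array for each of 45101 probe sets. GCOS, RMA and Partek 6.4 appear, without roles, in the submitters' processing notes, and the log2 scale was taken from them and from the range. RMA flattens very dim and very bright signals, which understates their differences. A genome build and scan dates were not given in the sources used here, so no batch could be tested, and no depth applies to arrays: their number limits the precision.

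Leaving out 64 control probe sets, 34945 probe sets had 1 gene symbol, 932 several and 9160 none in the platform's annotation; 34741 matched RefSeq by Entrez identifier and 0 symbols changed. Each of 18193 genes was represented by its brightest single-symbol probe set over the 6 arrays, others serving as a check. All genes were fitted at once, with the line as the single covariate, in limma 3.58.1 in R 4.3.3 (2-sided, Benjamini-Hochberg over all genes, residual df 4, total 10.01). The floor, 6.07, was the 95th percentile of 86 probe sets for taste, olfactory and vomeronasal receptors. Where no array of a line, or not its mean, exceeded it, a fold is a bound against it. In simulated data for the AC29 and AB1 comparison, with 18193 genes, changes of 1, 1.5, 2 and 4 were called for 48%, 100%, 100% and 100% of 50 genes each, and 0 of 17993 unchanged genes were called. The median SE of a difference was 0.098, so these shares largely follow from the minimum of 1.

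Promoter windows were those of RefSeq (GRCm38.p6), searched on both strands. No window was found here for Eif4ebp1, Cth, Slc7a5 and Slc7a3. The members and the lists were chosen with earlier results of these data known. All members are named; of each other list, up to 3 called genes per direction with the largest difference and the brightest gene not called. Alternatives were 2 normalizations, 2 filters, 2 choices of probe sets, 4 models, 3 thresholds, 2 floors, leaving out each array, and, added after seeing the data, a fit on every probe set.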

Additional observations from a re-analysis of the deposited data

How the results depend on the processing

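Under 20 alternatives, 7 of the 15 called members kept their call in every one that gave a value, and 8 lost it in at least 1, in the same direction. This split follows from the alternative with a minimum of 1.5, which the differences of the 8 did not reach. Stc2, Psat1 and Aldh18a1 lost their call only there. The members called higher in AB1 numbered 15 to 17 when any 1 array was left out and 15 or 16 under the normalizations, filters, choices of probe sets and models tried, except 10 when limma tested against a 2-fold difference; they were 27 with no minimum difference and 7 with a minimum of 1.5. Members higher in AC29 numbered 1 on the mean of all probe sets, which is Phgdh (difference 1.25, limma adjusted p = 4.73e-07, reversed from -0.43 because its discordant probe set enters the mean), and 2 with no minimum difference. The members' median of -0.93 ran from -1.01 to -0.89 without 1 array, the lowest being without AC29 replicate 13. With no minimum difference, 20.5% and 19.8% of all genes passed toward AB1 and AC29. In that setting the calls were 7 and 6 for the eIF2 list, 10 and 4 for the further ATF4-linked genes and 5 and 9 for the other transporters. They were 4 and 3 for the folate and glycine enzymes, 8 and 1 for the ER list and 12 and 5 for the other bZIP factors. The synthetases had 11 toward AB1, 2 without probe sets marked _x_at or _s_at, 1 to 2 without 1 array (2 without AB1 replicate 6 or AC29 replicate 15), and 0 under the test against 2-fold or the minimum of 1.5. The eIF2 list had 0 toward AC29 on the mean of probe sets, under the test against 2-fold and with the minimum of 1.5. The further ATF4-linked genes had 0 toward AC29 under the last 2 settings, and the ER list 0 toward AB1 under both and 1 on the mean of probe sets. The other transporters had 1 toward AB1 on the mean of probe sets, and toward AC29 2 where the mean over the 6 arrays had to exceed the floor (4 where that of either line did) and 2 with the minimum of 1.5. The folate list had 0 to 1 toward AC29 without 1 array (1 without AB1 replicate 4 or 5 or AC29 replicate 15). Phgdh had no value without probe sets marked _x_at or _s_at. With a higher floor, at percentile 99, 1 member was above it in only 1 line. No paired analysis was possible because the lines share no replicate numbers.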

Other observations

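A pair of probe sets that the platform assigns to Phgdh together with a predicted gene entered no comparison. The set listed for Gm8096 and Phgdh read 12.24, 12.25 and 12.14 in AB1 and 11.42, 11.23 and 11.54 in AC29, so every AB1 flask was above every AC29 flask. The set listed for Gm6756 and Phgdh read 8.07, 7.94 and 8.23 in AB1 and 10.59, 10.44 and 10.43 in AC29, with every AC29 flask above every AB1 flask.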
